A study of Mus musculus with 15 samples.

Results

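Retinoic acid synthesis and response was described through 9 genes in fibroblasts exposed to cytokines. They comprise the receptor that takes up retinol (*Stra6*), the dehydrogenases that make retinoic acid (*Aldh1a1*, *Aldh1a2*, *Aldh1a3*), a reductase that turns retinal back into retinol (*Dhrs3*), the intracellular binding proteins (*Crabp1*, *Crabp2*), the hydroxylase that clears retinoic acid (*Cyp26b1*) and a nuclear receptor (*Rarb*). The probes were those, other than control spots, whose identifier is a RefSeq transcript of 1 of these genes. They were 12 of the 56605 distinct probes of the array and covered 8 of the 9 genes, since no probe carried a RefSeq transcript of *Crabp2*. A probe entered the tests when, in at least 1 group, the software of the scanner marked it as well above background on each array. This held for 8 of the 12 probes and for 29334 probes in all. These 8 probes represent 6 genes, *Stra6*, *Aldh1a1*, *Dhrs3*, *Crabp1*, *Cyp26b1* and *Rarb*.

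Mouse Embryonic Fibroblasts (MEFs) of the established line Balb/c/3T3 clone A31, a single clone of embryonic connective tissue cells, formed 5 groups. Controls received no cytokine, and the other groups received 10 ng/ml of TNFα, 5 ng/ml of TGFß1, 1 ng/ml of IL-1β, or 20 ng/ml of IL-6 together with 25 ng/ml of sIL-6Rα, its soluble receptor. Each group held 3 one-color arrays, and an array is named here by its group and its label number. The methods give 24 h of stimulation for the control, TNFα and TGFß1 arrays and describe them as biological replicas, while neither is stated for the IL-1β and IL-6 groups, so that their p-values measure the spread between arrays, which may be technical. Values are log2 processed signal minus the 75th percentile of the array, so that 0 is the 75th percentile of the spots, and the level of 1 probe cannot be set against that of another.

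Retinoic acid is made from vitamin A in a pair of steps: retinol is oxidized to retinal, which dehydrogenases of the ALDH1A family oxidize further to retinoic acid, and DHRS3 runs the first step backwards. Inside the cell, retinoic acid is carried by CRABP proteins, binds retinoic acid receptors that pair with retinoid X receptors on DNA, and is cleared by CYP26 hydroxylases. Several of these genes, among them *Rarb*, *Cyp26b1* and *Dhrs3*, are themselves known to respond to retinoic acid, and in fibroblasts the pathway is known for its part in differentiation and matrix production.

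The promoter of *Rarb* is shown because it is the textbook example of a retinoic acid response element, a direct repeat of a core motif of 6 bases to which the receptor pair binds. Promoter windows of 300 bases (250 before and 50 after the gene start, RefSeq, GRCm38.p6) were at hand for 7 of the 9 genes, in 13 windows. They were searched on both strands for the core motif AGGTCA, its variant AGTTCA with another base inside, its variant GGGTCA with another first base and the variant GGTTCA with both changes, and for direct repeats of any of these 1, 2 or 5 bases apart. A repeat was found in 1 window, that of *Rarb*, on the minus strand, where the gene lies, at chr14:16575513-16575529, its first base 53 bases before the gene start. The stretch chr14:16575483-16575559 (GRCm38.p6, minus strand, 5′ to 3′) is given with the repeat, its 2 core motifs and the 5 bases between them, in capitals. The stretch also opens with GGGTCA, another of the motifs searched for, which lies outside the repeat and is left in lower case.
Rarb promoter: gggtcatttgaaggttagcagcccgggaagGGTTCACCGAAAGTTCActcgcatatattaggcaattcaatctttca
Over all 32851 mouse promoter windows of this length, repeats 5 bases apart were found in 0.0974%, repeats 2 bases apart in 0.268%, repeats 1 base apart in 0.222%, and at least 1 core motif in 43.7%. These are matches of letters, and which of the *Rarb* transcripts starts there is not given in the table.

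The 15 arrays were of similar quality. The 75th percentile of the processed signal lay between 508 and 683, 48.3% to 54.9% of the probes were well above background, no spot was saturated, and arrays of 1 group correlated at 0.977 to 0.995. The number of arrays limits the precision. They lay on 2 slides, each scanned at 1 time, and every group was spread over both, but not evenly. The control, IL-1β and IL-6 groups had 2 arrays on slide 1 and 1 on slide 2, and the TNFα and TGFß1 groups had 1 and 2. All 9 fibroblast markers were well above background on all 15 arrays, while the epithelial *Cdh1* and *Krt5*, the endothelial *Cdh5*, *Kdr* and *Tek* and the leukocyte *Ptprc* and *Adgre1* were so on none. *Csf1r*, *Cd68*, *Itgam*, *Cd3e* and *Pecam1* were well above background on all 15 arrays. Known targets of 3 of the cytokines moved. *Ccl5* rose with TNFα (log2 fold-change 8.36) and IL-1β (2.83), and *Socs3* with IL-6 (2.39).

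In MEFs treated by TNFα, 1 of the 6 tested genes was called compared to controls, *Dhrs3*, which fell. A call needed an adjusted p below 0.05 in limma's moderated test (two-sided, Benjamini-Hochberg over all tested probes) and an absolute fold-change of at least 1.5, which 10.2% of all tested probes met with TNFα (4.12% higher and 6.06% lower). In MEFs treated by TGFß1, *Dhrs3* and *Rarb* fell, 2 of 6 genes where 18% of all tested probes were called (7.17% higher and 10.8% lower). With IL-1β and with IL-6 no gene of the 6 was called, where 0.252% and 0.0648% of all tested probes were (74 and 19 probes). At an unadjusted p below 0.05 in limma the counts were 0 and 1 of 6 genes, the 1 being *Crabp1*, where 3.71% and 3.26% of all tested probes were below it. The median log2 fold-change of the 6 genes was -0.47 with TNFα, -0.53 with TGFß1, -0.14 with IL-1β and -0.24 with IL-6. The corresponding medians over all tested probes were 0.04, 0.05, 0.00 and 0.00.

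**Figure D1:**
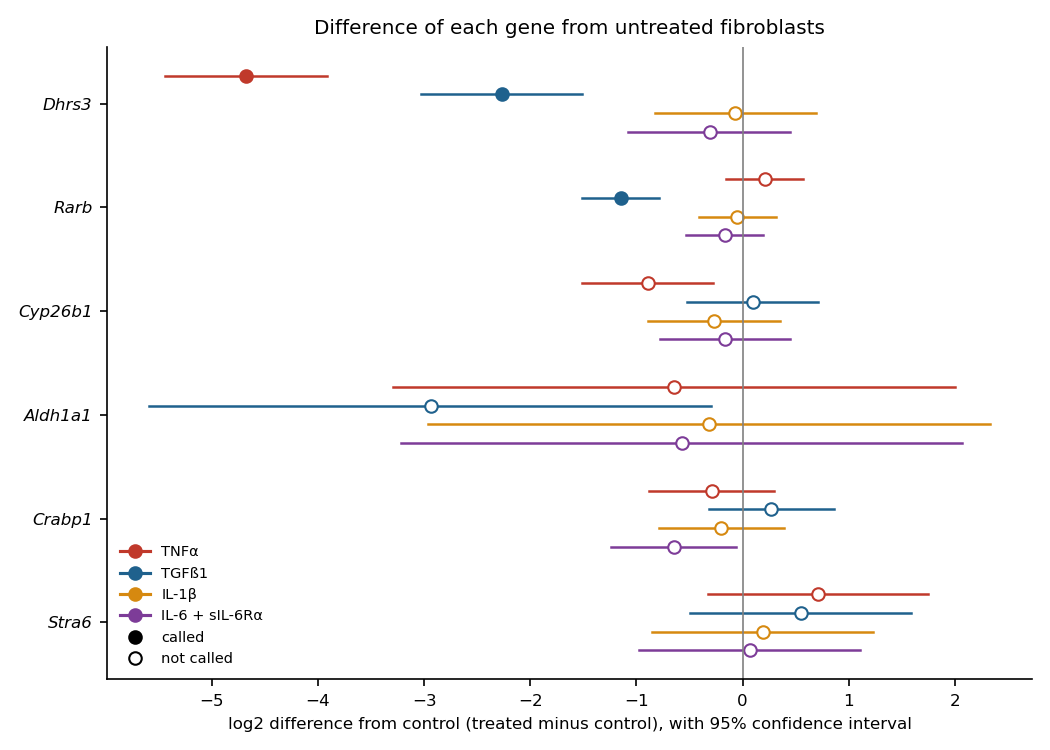
Log2 fold-change of the 6 tested genes with each cytokine compared to controls (x axis, treated minus control; points are estimates from limma, lines 95% confidence intervals, filled points are called). *Dhrs3* lay at -4.68 with TNFα and -2.27 with TGFß1 and *Rarb* at -1.15 with TGFß1, while the intervals of *Aldh1a1* were the widest of the 6 genes.

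*Dhrs3*, the retinal reductase, showed the largest called differences of the 6 genes. Its log2 level was 1.85, 2.18 and 2.19 on control arrays 1, 6 and 11, and -3.17, -1.72 and -2.92 on TNFα arrays 4, 9 and 14. It was -0.69, 0.08 and 0.02 on TGFß1 arrays 2, 7 and 12. All TNFα arrays lay below all TGFß1 arrays, and these below all other arrays. With IL-1β the levels were 1.66, 2.52 and 1.83, and with IL-6 they were 1.56, 2.04 and 1.68, so that both groups overlapped the controls.

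Compared to controls, the log2 fold-change of *Dhrs3* was -4.68 with TNFα (SE 0.35, 95% confidence interval -5.44 to -3.92, limma adjusted p = 5.35e-06), a 25.6-fold difference. With TGFß1 it was -2.27 (SE 0.35, interval -3.03 to -1.51, adjusted p = 0.000686), a 4.82-fold difference. The difference between TNFα and TGFß1 was itself past the threshold (-2.41, SE 0.35, adjusted p = 0.000451). With IL-1β the estimate was -0.07 (interval -0.83 to 0.69, adjusted p = 1) and with IL-6 it was -0.31 (interval -1.08 to 0.45, adjusted p = 1), and both groups were higher than TNFα, by 4.61 and 4.37, and higher than TGFß1, by 2.20 and 1.95 (adjusted p from 9.14e-06 to 0.00192). In order of level, control, IL-1β and IL-6 did not differ beyond their spread, and TGFß1 and TNFα followed, each lower than the group before it.

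The second *Dhrs3* probe (NM_011303, as for the first) gave the same order. Its levels were -3.21, -2.98 and -2.98 in controls, -6.09, -5.36 and -6.23 with TNFα and -4.53, -4.70 and -4.51 with TGFß1. No TNFα array was well above background for this probe, so that it was at least 4.96-fold lower than in controls, taking the dimmest signal well above background on each array as a floor (limma adjusted p = 3.58e-06). With TGFß1 it fell by 1.52 (SE 0.20, adjusted p = 0.000233).

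In bulk RNA, fewer cells of a type and less RNA per cell cannot be told apart. In these cultures of a single clone, adipocyte and epithelial marker signals were also lower with TNFα and TGFß1. The summed signal of the 9 fibroblast markers was 665000 to 841000 on control arrays, 449000 to 664000 with TNFα and 516000 to 680000 with TGFß1. It was 650000 to 890000 with IL-1β and 693000 to 776000 with IL-6. The epithelial signal was lower with IL-1β too, where the estimate of *Dhrs3* was -0.07 (interval -0.83 to 0.69). The summed signal of 4 adipocyte markers (*Adipoq*, *Plin1*, *Cidec*, *Fabp4*) was 2450 to 2760 on control arrays, 197 to 330 with TNFα, 648 to 1530 with TGFß1, 1760 to 3190 with IL-1β and 1920 to 3830 with IL-6. Of these, *Fabp4* was well above background on all 15 arrays, *Adipoq* on 13, *Cidec* on 12 and *Plin1* on 10. The summed signal of 7 epithelial markers was 937 to 1090 on control arrays, 41.5 to 44.1 with TNFα, 111 to 279 with TGFß1, 239 to 409 with IL-1β and 761 to 964 with IL-6. Of these 7, none was well above background on all arrays, *Epcam* was so on 1, and *Krt15* and *Krt18*, on 11 and 10, were so most often. The part of these signals in the fall of *Dhrs3* was not tested. Within slide 1 alone the log2 fold-change of *Dhrs3* was -4.94 with TNFα and -1.94 with TGFß1, and within slide 2 alone -4.63 and -2.51. The TGFß1 value missed the threshold within either slide (adjusted p = 0.0749 and 0.0613), each holding 1 or 2 arrays of a group, and within slide 2 so did the difference between TNFα and TGFß1 (-2.12, adjusted p = 0.0906). The differences of IL-1β and IL-6 from TGFß1 (1.72 to 2.16) missed it within either slide, and those from TNFα (4.28 and 4.13) within slide 2.

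**Figure D2:**
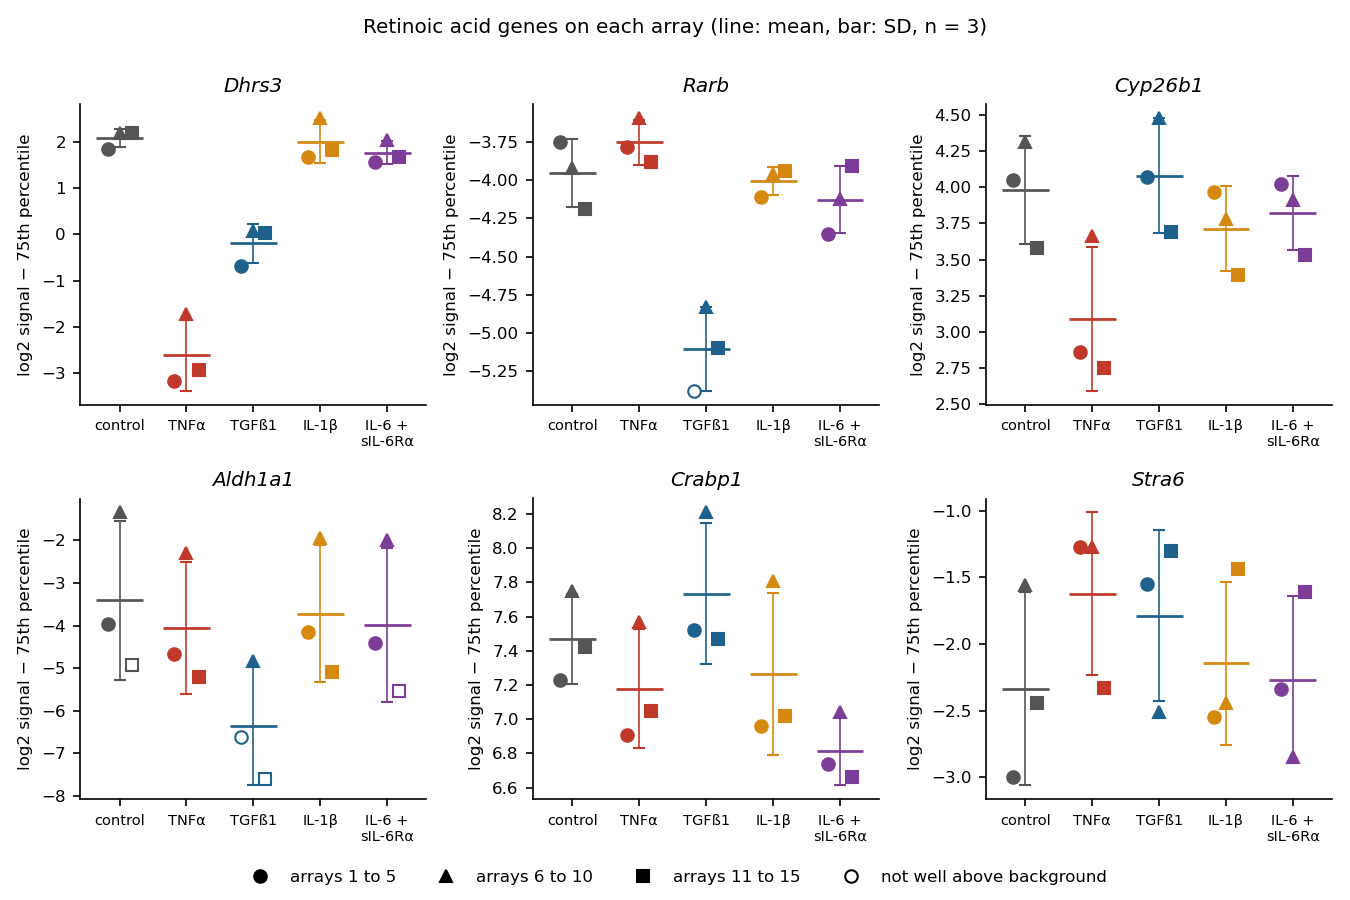
Log2 signal minus the 75th percentile of the array for the 6 tested genes in the 5 groups (points are arrays, with shape by run of label numbers and open points not well above background; lines are means and bars SD, n = 3; each panel has its own axis). *Dhrs3* separated TNFα (-3.17 to -1.72) and TGFß1 (-0.69 to 0.08) from the 9 other arrays, *Rarb* separated TGFß1 (-5.38 to -4.83), and the SD within groups of *Aldh1a1* was 1.40 to 1.86.

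*Rarb*, the retinoic acid receptor whose promoter is printed above, fell with TGFß1 and was not called with the other cytokines. Its log2 level (NM_011243) was -3.75, -3.92 and -4.19 in controls, -3.78, -3.59 and -3.88 with TNFα and -5.38, -4.83 and -5.10 with TGFß1. It was -4.11, -3.96 and -3.94 with IL-1β and -4.35, -4.12 and -3.91 with IL-6. All 3 TGFß1 arrays lay below the 12 other arrays, which overlapped except that the TNFα arrays all lay above those of IL-1β and of IL-6.

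The log2 fold-change of *Rarb* compared to controls was -1.15 with TGFß1 (SE 0.17, 95% confidence interval -1.51 to -0.79, limma adjusted p = 0.000437), a 2.22-fold difference. It was 0.21 with TNFα (interval -0.16 to 0.57, adjusted p = 0.479), -0.05 with IL-1β and -0.17 with IL-6 (adjusted p = 1 for both). The group treated by TGFß1 was also lower than the other cytokines. *Rarb* was 1.36 higher with TNFα (adjusted p = 0.000124), 1.10 higher with IL-1β (0.000627) and 0.98 higher with IL-6 (0.00134). The order of levels was therefore TNFα, control, IL-1β and IL-6, whose neighbours did not differ past the threshold, and TGFß1 below them.

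*Rarb* was dim. Its processed signal lay between 13.3 and 50.8 over the 15 arrays, and array TGFß1 2 was not well above background. With normexp background correction the log2 fold-change shrank to -0.26 and was no longer called (adjusted p = 0.0713), an alternative added after seeing the data. Normexp was run with an offset of 50 added to each signal, which by itself shrinks the fold-changes of dim probes. The part of this offset in the lost call was not tested. The differences from the other cytokines were not called with normexp either (0.36, 0.19 and 0.19 higher with TNFα, IL-1β and IL-6 than with TGFß1, adjusted p = 0.02, 0.178 and 0.195, the first under the fold-change criterion). Within slide 1 the difference from controls was -0.86 (adjusted p = 0.13) and within slide 2 it was -1.32 (adjusted p = 0.0206). The other cytokines were 0.95, 0.80 and 0.59 above TGFß1 within slide 1, and none of these was called (adjusted p = 0.156, 0.126 and 0.212). Of the other *Rarb* probes, for the transcripts NM_001289760 and NM_001289761, the first was well above background on 3 of 15 arrays and the second on none, so that neither was tested. The first read -5.36, -4.95 and -6.03 in controls and -7.00, -5.93 and -5.93 with TGFß1.

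*Cyp26b1*, the hydroxylase that clears retinoic acid, was well above background on all 15 arrays. Its log2 level was 4.05, 4.31 and 3.58 in controls, 2.86, 3.66 and 2.75 with TNFα and 4.07, 4.48 and 3.69 with TGFß1. It was 3.97, 3.78 and 3.39 with IL-1β and 4.02, 3.91 and 3.53 with IL-6. The TNFα arrays held the 2 lowest values of the 15, and the third, TNFα 9, lay above control 11.

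The log2 fold-change of *Cyp26b1* with TNFα was -0.89 (SE 0.28, 95% confidence interval -1.51 to -0.28) and missed the threshold (limma adjusted p = 0.0583). With TGFß1 it was 0.10, with IL-1β -0.27 and with IL-6 -0.17, and none was called. Between TNFα and TGFß1 the difference of -0.99 was called (SE 0.28, adjusted p = 0.0324). The TNFα array lay below the control array of the same run of label numbers in all 3 runs, with differences of -1.19, -0.65 and -0.84. With these runs as a block (numbers 1 to 5, 6 to 10 and 11 to 15, in each of which every group has 1 array), the TNFα value of -0.89 was called (SE 0.16, adjusted p = 0.0034). Without control 11 it was -1.09 (adjusted p = 0.046), and without TNFα 9 it was -1.18 (adjusted p = 0.02). The call between TNFα and TGFß1 was lost without TNFα 4, TNFα 14, TGFß1 2 or TGFß1 7 (-0.99 to -0.79, adjusted p = 0.0804 to 0.131). It was also lost with quantile normalization (adjusted p = 0.0783), with no filter on dim probes (0.0727), with the arrays of the groups compared only (0.088), without the arrays numbered 6 to 10 (0.0562) and within slide 2 (-0.62, adjusted p = 0.263).

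*Aldh1a1*, the dehydrogenase of the 3 that makes retinoic acid and was detected here, followed the runs of label numbers in every group. On arrays 1, 6 and 11 of the controls its log2 level was -3.96, -1.34 and -4.93, and on arrays 4, 9 and 14 of TNFα it was -4.66, -2.30 and -5.21. On arrays 2, 7 and 12 of TGFß1 it was -6.61, -4.84 and -7.60. With IL-1β it was -4.15, -1.95 and -5.08, and with IL-6 it was -4.41, -2.00 and -5.54. In each of the 5 groups the array numbered 6 to 10 was the highest, by 1.77 to 2.62, and the array numbered 11 to 15 the lowest. The probe was not well above background on control 11, TGFß1 2, TGFß1 12 and IL-6 13.

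Compared to controls, the log2 fold-change of *Aldh1a1* with TGFß1 was -2.94 (SE 1.22, 95% confidence interval -5.59 to -0.30) and was not called (limma adjusted p = 0.0993). In the run numbered 6 to 10, the one in which both arrays were well above background, the TGFß1 array lay below the control array with a difference of -3.50. In the run numbered 1 to 5 the TGFß1 array and in the run numbered 11 to 15 both arrays were not well above background, so that no difference is given for them. With the runs as a block the same value had an SE of 0.17 and was called (adjusted p = 2.04e-06), a fit that takes these dim readings as measured, and without the 5 arrays numbered 6 to 10 it was -2.66 and called (adjusted p = 0.0195, an alternative added after seeing the data). With normexp, whose offset shrinks the values of dim probes, it was -0.92 (adjusted p = 0.259). Within slide 1 it was -0.40 and within slide 2 it was -5.77. On either slide the TGFß1 and control arrays are of different runs, so that treatment and run cannot be told apart there. The difference with TNFα was -0.65 (adjusted p = 0.774) and became a call with the block (SE 0.17, adjusted p = 0.0224). The estimates were -0.32 with IL-1β and -0.57 with IL-6 (adjusted p = 1 for both), and neither was called with the block.

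The runs of label numbers also showed over the tested probes as a whole. With the slide removed, deviations from group means correlated above 0.1 in 30 of 30 pairs of arrays of the same run. In pairs of different runs 2 of 60 did. The array numbered 6 to 10 was the highest in all 5 groups for 4.56% of the tested probes with a value on all arrays, and some run was the highest in all 5 for 9.05%. *Crabp1* was the other gene of the 6 with this pattern. The study names independent experiments for the control, TNFα and TGFß1 arrays, but whether the label numbers mark them is not stated.

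**Figure D3:**
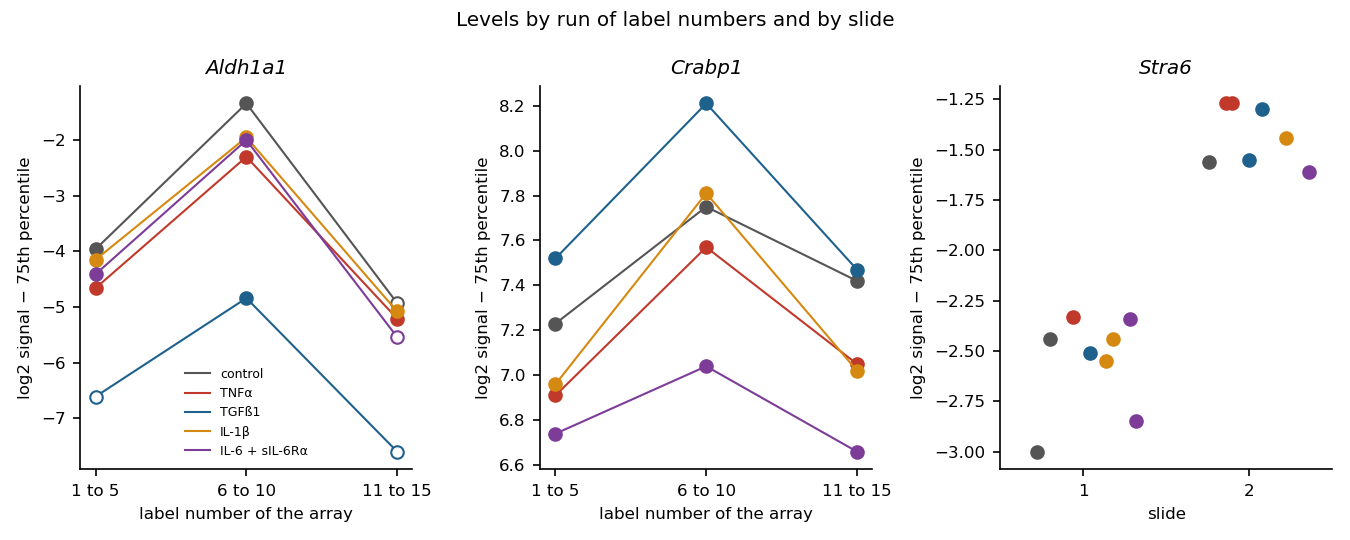
Log2 signal minus the 75th percentile of the array for *Aldh1a1* and *Crabp1* by run of label numbers (lines join the arrays of a group, open points are not well above background) and for *Stra6* by slide (points are arrays, spread sideways by group, colors as in the first panel; each panel has its own axis). In all 5 groups the array numbered 6 to 10 was the highest for *Aldh1a1* and *Crabp1*, and all *Stra6* values of slide 2 (-1.61 to -1.27) lay above those of slide 1 (-3.00 to -2.33).

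The other dehydrogenases, *Aldh1a2* and *Aldh1a3*, were not well above background on any array. Their processed signal lay between 2.70 and 8.97 and between 2.56 and 7.57. No fold-change is given for them.

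*Crabp1*, a carrier of retinoic acid in the cytoplasm, was read by probes for NM_001284507 (10 spots per array) and NM_013496, both well above background on all arrays. The first read 7.23, 7.75 and 7.42 in controls, 6.91, 7.57 and 7.05 with TNFα and 7.52, 8.21 and 7.47 with TGFß1. With IL-1β it read 6.96, 7.81 and 7.02, and with IL-6 it read 6.74, 7.04 and 6.66. All IL-6 arrays lay below all control and all TGFß1 arrays. As for *Aldh1a1*, the array numbered 6 to 10 was the highest in each group, by 0.30 to 0.79.

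No cytokine changed *Crabp1* past the threshold compared to controls. The log2 fold-change was -0.65 with IL-6 (SE 0.27, 95% confidence interval -1.24 to -0.06, limma adjusted p = 1), and it was -0.77 for the second probe (adjusted p = 1). It was -0.29 with TNFα, 0.27 with TGFß1 and -0.20 with IL-1β. With IL-6 the level was lower than with TGFß1, with a log2 difference of -0.92 in the first probe (SE 0.27, adjusted p = 0.0286) and of -0.96 in the second (SE 0.29, adjusted p = 0.0312). With the runs and the slide together as blocks, the IL-6 value of -0.65 was called (SE 0.10, adjusted p = 0.0196). The call between IL-6 and TGFß1 was lost without TGFß1 7, IL-6 3 or IL-6 13 (-0.88 to -0.68, adjusted p = 0.073 to 0.107) and with quantile normalization (-0.80, adjusted p = 0.0671). It was also lost with no filter on dim probes (adjusted p = 0.0656) and within either slide (adjusted p = 0.117 and 0.163).

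*Stra6*, the receptor through which cells take up retinol, followed the slide. The levels on slide 1 were -3.00 and -2.44 on control arrays 1 and 11, -2.33 with TNFα, -2.51 with TGFß1, -2.55 and -2.44 with IL-1β and -2.34 and -2.85 with IL-6. On slide 2 they were -1.56 in the control, -1.27 and -1.27 with TNFα, -1.55 and -1.30 with TGFß1, -1.44 with IL-1β and -1.61 with IL-6. All 7 arrays of slide 2 lay above all 8 of slide 1, as for 8.94% of the tested probes, and within groups the slides differed by 1.07 on the log2 scale.

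No cytokine changed *Stra6* past the threshold. The log2 fold-change was 0.71 with TNFα (interval -0.33 to 1.75, limma adjusted p = 0.389), 0.55 with TGFß1 (adjusted p = 0.444), 0.19 with IL-1β and 0.07 with IL-6. With the slide as a block the first 2 shrank to 0.35 (SE 0.16, adjusted p = 0.137) and 0.19 (SE 0.16, adjusted p = 0.368).

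Between cytokines, 10 of the 36 differences tested over the 6 genes and 6 pairs of cytokines were called. They were 3 of 6 genes between TNFα and TGFß1 (where 11.8% of all tested probes were called), *Dhrs3* alone between IL-1β and TNFα (4.83%) and between IL-6 and TNFα (8.68%), *Dhrs3* and *Rarb* between IL-1β and TGFß1 (17%), and *Dhrs3*, *Rarb* and *Crabp1* between IL-6 and TGFß1 (16.4%). Between IL-1β and IL-6 none was called (0.419%). With the runs as a block, 15 of the 36 were called. The 5 gained were *Aldh1a1*, higher than with TGFß1 by 2.29 with TNFα, 2.63 with IL-1β and 2.37 with IL-6 (adjusted p = 7.61e-06, 3.94e-06 and 6.59e-06, with 2 of the 3 TGFß1 readings not well above background), and *Cyp26b1*, higher than with TNFα by 0.62 with IL-1β and 0.73 with IL-6 (adjusted p = 0.0319 and 0.0115). The comparisons share arrays and are not independent.

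Genes whose levels ran most like those of the 6 genes over the 15 arrays were sought among 13486 named genes by Pearson's r. For *Dhrs3* they were *Plin4*, *Hspa2* and *Spon2* (r = 0.974, 0.964 and 0.964), for *Rarb* *Prkar2b*, *Rnf24* and *Mfap5* (0.956, 0.952 and 0.948) and for *Cyp26b1* *Ptk7*, *Gmip* and *Zfp667* (0.916, 0.91 and 0.893). For *Crabp1* they were *Fibin*, 4930402H24Rik and *Spn* (0.919, 0.904 and 0.892), for *Aldh1a1* *Plxdc2*, *Dclk2* and 5031426D15Rik (0.955, 0.943 and 0.939) and for *Stra6* *Naip5*, *Pla2g4b* and *Ccdc33* (0.985, 0.982 and 0.979). The arrays share slides, runs and groups, so that these values are descriptions. Among the 6 genes themselves, r ranged from -0.431 (*Dhrs3* and *Stra6*) to 0.622 (*Rarb* and *Aldh1a1*).

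The rest of the pathway was read through 55 other genes for uptake, oxidation, carriage, reception and response, of which 32 had a tested probe. The list was chosen with earlier results of these data known. Each gene was read by its probe with the highest mean, while the shares beside the counts cover all tested probes, dim ones included. With TNFα, 1 of the 32 rose and 8 fell (28.1%, against 10.2% of all tested probes), with a median log2 fold-change of -0.25. With TGFß1, 5 rose and 9 fell (43.8%, against 18%), with a median of -0.36. None was called with IL-1β or IL-6, where the medians were -0.05 and 0.01, and at an unadjusted p below 0.05 in limma the counts were 6 and 3 of 32, where 3.71% and 3.26% of all tested probes were below it. Within slide 1, with 2 arrays of a group at most, 8 of the 9 calls with TNFα (all but *Nr2f1*) and 12 of the 14 with TGFß1 (all but *Bhlhe40* and *Rarres2*) missed the threshold, and within slide 2 it was 2 and 4, with no change of direction.

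Of the 5 tested receptors, *Rara* and *Rxra* fell with both cytokines. *Rara*, a retinoic acid receptor, read 3.33, 3.65 and 3.75 in controls, 1.96, 1.81 and 2.22 with TNFα and 2.75, 2.65 and 2.73 with TGFß1, so that the groups did not overlap. Its log2 fold-change was -1.58 with TNFα (SE 0.15, limma adjusted p = 3.59e-05) and -0.87 with TGFß1 (SE 0.15, adjusted p = 0.00152), with a called difference of -0.72 between them. *Rxra*, the retinoid X receptor that pairs with it, changed by -0.81 and -0.70 (SE 0.12 for both, adjusted p = 0.00108 and 0.00164). *Rarg*, another retinoic acid receptor, fell with TGFß1 (-0.62, SE 0.17, adjusted p = 0.0185), a call lost without control 1, control 11 or TGFß1 2, with the arrays of the groups compared only (adjusted p = 0.0789), and within either slide (adjusted p = 0.158 and 0.202). With the slide as a block, alone or with the runs, the value was -0.57 or -0.56, under the fold-change criterion. *Ppard*, a nuclear receptor for fatty acids that can also bind retinoic acid, rose with TGFß1 (0.87, SE 0.13, adjusted p = 0.000468). *Rxrb* was not called with either, and *Rxrg* was not tested.

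Of the 12 tested oxidoreductases, *Adh1*, an alcohol dehydrogenase that oxidizes retinol, fell the most. It read -1.57, 0.59 and -1.13 in controls, -3.88, -3.02 and -4.15 with TNFα and -5.16, -4.64 and -5.09 with TGFß1, the control array numbered 6 again being the highest. The log2 fold-change was -2.98 with TNFα (SE 0.64, limma adjusted p = 0.00904) and -4.26 with TGFß1 (SE 0.64, adjusted p = 0.000561), and the difference between them was not called. Array TGFß1 2 was not well above background. With normexp the values were -1.95 and -2.38, both still called. Within slide 2, where the high control 6 was the only control, they were -4.04 and -5.71. Within slide 1 they were -2.81 and -3.30 and missed the threshold. With TGFß1, the retinol dehydrogenase *Rdh10* (0.67, SE 0.15, adjusted p = 0.00746) and the retinal reductase *Rdh13* (0.60, SE 0.13, adjusted p = 0.00513) rose and *Dhrs7* (-0.70, SE 0.17, adjusted p = 0.00974) fell. Without control 6 or TGFß1 7 the *Rdh13* value was 0.50 or 0.55, under the fold-change criterion, as was that of *Rdh10* without TGFß1 12 (0.54). With quantile normalization both were under it (0.55 and 0.58), with normexp *Rdh13* was (0.56), and without the arrays numbered 6 to 10 both missed the threshold (adjusted p = 0.0795 and 0.0544). *Fabp5*, a fatty acid carrier that also carries retinoic acid to nuclear receptors, rose with TGFß1 (1.19, SE 0.24, adjusted p = 0.00346), and with the runs as a block its value of 0.59 with TNFα was called too (adjusted p = 0.00892). Of the 10 genes of retinol uptake, binding and storage, *Dgat1* alone was tested, and it was not called.

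**Figure D4:**
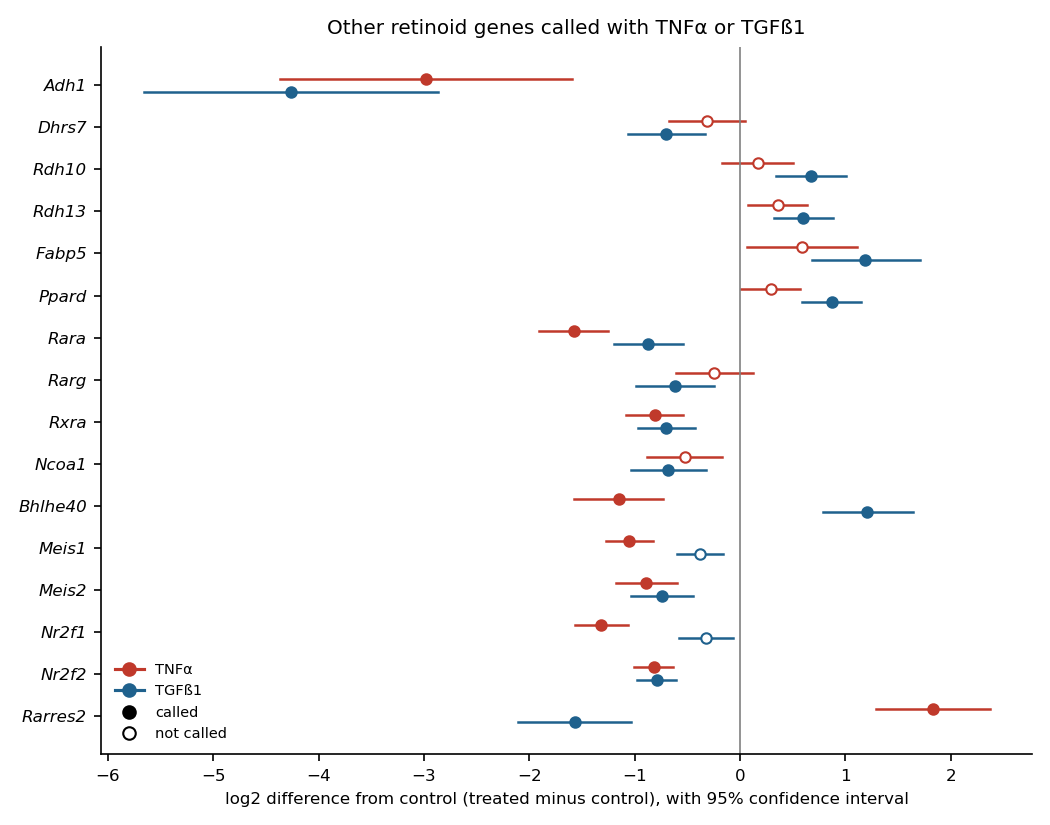
Log2 fold-change with TNFα and TGFß1 compared to controls (x axis, treated minus control, points are estimates from limma with 95% confidence intervals, filled points are called) for the 16 other retinoid genes called with at least 1 of them. *Rarres2* and *Bhlhe40* lay on opposite sides of 0 in the 2 treatments, and *Adh1*, *Rara*, *Rxra*, *Meis2* and *Nr2f2* fell in both.

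Of the 8 tested genes known to respond to retinoic acid, 5 fell and 1 rose with TNFα (6.06% and 4.12% of all tested probes did), and 3 fell and 1 rose with TGFß1 (10.8% and 7.17%). *Rarres2*, which encodes the secreted protein chemerin, read 0.60, 0.24 and 0.59 in controls, 2.00, 2.69 and 2.23 with TNFα and -1.02, -1.30 and -0.95 with TGFß1. It rose by 1.83 with TNFα (SE 0.25, limma adjusted p = 0.000457) and fell by 1.57 with TGFß1 (SE 0.25, adjusted p = 0.000786). All IL-1β (1.52 to 1.82) and IL-6 arrays (1.37 to 2.44) also lay above the controls, without a call (1.19 and 1.37, adjusted p = 0.105 and 0.113). Both were called with the runs and the slide together as blocks (adjusted p = 0.0486 and 0.0365), and the IL-1β value also when IL-6 8 was left out of the fit (adjusted p = 0.0259).

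*Bhlhe40*, a transcription factor of the circadian clock, ran the other way, with a log2 fold-change of -1.15 with TNFα (SE 0.20, limma adjusted p = 0.00229) and 1.21 with TGFß1 (SE 0.20, adjusted p = 0.000927). The developmental transcription factors *Meis1* (-1.05), *Meis2* (-0.89), *Nr2f1* (-1.32) and *Nr2f2* (-0.82) all fell with TNFα (adjusted p = 1.96e-05 to 0.001). *Meis2* (-0.74) and *Nr2f2* (-0.79) were called with TGFß1 too, while *Meis1* (-0.38) and *Nr2f1* (-0.32) were not, and for both of these the difference between TNFα and TGFß1 was called (-0.66 and -0.99). Among the 5 tested coregulators, 1 was called, the coactivator *Ncoa1*, which fell by 0.68 with TGFß1 (SE 0.16, adjusted p = 0.00989). Without control 6, or without all arrays numbered 6 to 10, its log2 fold-change was -0.51, under the fold-change criterion.

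Second probes of these genes had the same direction wherever the first was called, with smaller or larger values. For *Rara* the second probe gave -1.45 with TNFα and -0.66 with TGFß1, and for *Adh1* it gave -2.70 and -3.02, all called. The second probes of *Rxra* (-0.61, limma adjusted p = 0.104) and *Meis1* (-0.68, adjusted p = 0.0549) and the third of *Meis2* (-0.41, adjusted p = 0.158) were not called with TNFα. As said for *Dhrs3*, the adipocyte and epithelial marker sums were also lower with TNFα and TGFß1. The epithelial sum was lower with IL-1β too, a comparison in which 0.252% of all tested probes were called and none of these genes was. The part of these signals in the falls was not tested.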

How the data were processed

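RNA of 15 samples of MEFs was labelled with Cy3 and hybridized to 1-color Agilent arrays. The authors extracted the spots with Feature Extraction 10.7.3.1 (per the labels' processing notes), and the deposited intensity is the processed signal, after the software's background subtraction, with no normalization between arrays. The deposited series table repeats these intensity values (largest difference 0). The study names limma, a q-value threshold and an absolute fold-change of 1.5. Here, spots marked as uneven or as outliers were left out, log2 intensity was averaged per probe, and each array's 75th percentile, taken over its 59305 non-control spots, was subtracted. Probes were named through RefSeq identifiers (table of GRCm38.p6), which matched 33767 of 56605 probes. The array design uses another build (mm9), and probe positions are left out. Where several probes read a gene, the one with the highest mean over the 15 arrays stands for it.

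Groups came from the labels. Models were fitted with limma 3.58.1 in R 4.3.3 (lmFit and eBayes, all 15 arrays, no covariates, two-sided), with Benjamini-Hochberg adjustment over 29334 probes, and were tested on simulated data. The slide was read from the scanner files. The 9 genes were named by rule in every group, and the other retinoid genes where called compared to control; 2 genes of these lists are not reported here. Members, lists and alternatives were chosen with earlier results of these data known. The runs of label numbers were checked through deviations from group means: with the slide removed, r exceeded 0.1 in 30 of 30 pairs of arrays of the same run (0.114 to 0.671) and in 2 of 60 pairs of different runs, while without removing it 12 of 30 and 28 of 60 did. The labels do not say what the numbers mark, so that the pairing rests on this check. Alternatives covered the slide, the runs, scaling, background correction, filters, thresholds and each array left out in turn.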

Additional observations from a re-analysis of the deposited data

How the results depend on the processing

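No called value of the 6 genes or the wider list changed its direction under any alternative that gave a value. Of the 6 genes, the number called with TNFα was 1, and 3 with the replicate block of label-number runs (*Dhrs3*, *Cyp26b1* and *Aldh1a1*), alone or with the slide. Leaving out each array in turn gave 1 to 2. With TGFß1 it was 2, and 3 (*Aldh1a1* gained) with the replicate block, alone or with the slide, and without the arrays numbered 6 to 10. Within slide 1 alone *Dhrs3* and *Rarb* missed the threshold, and within slide 2 alone *Dhrs3* did. *Aldh1a1* is not counted within a slide, since the TGFß1 and control arrays there are of different runs. Treatment and run cannot be told apart in that comparison. The number called was 1 with normexp and 1 with probes well above background on all arrays, which removes *Rarb* and *Aldh1a1* from the test, while leaving out each array gave 2 throughout. It was 0 with IL-1β under all alternatives, and with IL-6 it was 0, and 1 (*Crabp1*) with the replicate block and the slide, with 0 for each array left out. Of the differences between cytokines, 10 were called, 15 with the replicate block, alone or with the slide, 4 within slide 1, 3 within slide 2, 7 with normexp, and 8 to 11 with each array left out, 8 without TGFß1 7.

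Over all tested probes the number called with TNFα was 2986, and 343 within slide 1, 4513 with the replicate block and slide, and 1589 at a fold-change of 2. With TGFß1 it was 5283, and 824 within slide 1, 3482 with normexp and 2684 at a fold-change of 2. With IL-1β it was 74 and ranged from 1 to 320, and with IL-6 it was 19 and ranged from 0 to 228, the highest with the replicate block and slide. Leaving out each array gave 1900 to 3040, 4057 to 5478, 36 to 78 and 5 to 22. Within slide 1, 2 arrays at most of a group enter, so that a lost call there comes with fewer arrays. Under the other scalings and normexp the median of all tested probes compared to control stayed between -0.01 and 0.07. Normexp could be run on the median spot signal only, since the scanner files hold no mean signal, and this was decided after seeing the data, as was leaving out the arrays numbered 6 to 10. Normexp gave smaller values for the dim *Rarb*, *Aldh1a1* and *Adh1*, as its offset of 50 does for any dim probe.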
